A study of Mus musculus with 96 samples.

Results

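The metallothioneins Mt1 and Mt2 and the zinc transporters Slc39a4, Slc39a5, Slc39a14 and Slc30a1 were followed by RNA sequencing in pancreatic islets and liver of mice on a high-fat diet (HFD) or a chow diet (CD). These 6 genes were taken by name from the 20155 genes with values, and each was present in the table. Male C57BL/6N mice, bought at 4 weeks of age, received HFD with 60% fat or CD with 13.5% fat, and 4 mice of each diet were sampled after 4, 8, 12, 16, 20 and 24 weeks of feeding. Islets and liver of the same 48 mice gave 96 libraries in 24 groups of 4. Each week holds other mice, so that time on the diet, age and anything else that differed between the weeks cannot be told apart. The purified HFD and the chow differ in more than fat, including their mineral sources, so that the effects of fat and of dietary zinc cannot be told apart either.

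Zinc is held at a low free level inside cells. Metallothioneins are small cysteine-rich proteins that bind zinc and copper, and their genes are switched on by zinc through the metal-sensing factor MTF1, and also by glucocorticoids and by inflammatory signals. The ZIP proteins (Slc39 genes) bring zinc into the cytosol, and the ZnT proteins (Slc30 genes) carry it out of the cytosol. Among the ZIPs, ZIP4 (Slc39a4) and ZIP5 (Slc39a5) are best known from the intestine and pancreas, and ZIP14 (Slc39a14) is the hepatic importer of zinc, iron and manganese that responds to interleukin 6. ZnT1 (Slc30a1) exports zinc across the plasma membrane and is itself an MTF1 target. In the beta cell, zinc is stored with insulin in the secretory granule, which it enters through ZnT8 (Slc30a8).

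In the annotation of the deposited table (GRCm38), Mt2 (Entrez gene 17750, chr8:94172618-94173567) and Mt1 (17748, chr8:94179084-94180327) lie next to each other on the plus strand. Slc30a1 (22782) spans chr1:191906689-191913247 on the plus strand. The ZIP genes lie on the minus strand, with Slc39a5 (72002) at chr10:128395927-128401276, Slc39a4 (72027) at chr15:76612383-76617379 and Slc39a14 (213053) at chr14:70303467-70351424. The promoters of Mt1, Mt2 and Slc30a1 are shown because these genes varied together between mice in both tissues. They are the 250 bases before the start given by RefSeq (GRCm38.p6, plus strand), at chr8:94178839-94179088 for Mt1, chr8:94172368-94172617 for Mt2 and chr1:191906531-191906780 for Slc30a1. Capitals mark matches to the core of the metal response element to which MTF1 binds, searched as TGCACNC and TGCGCNC on both strands.
Mt1: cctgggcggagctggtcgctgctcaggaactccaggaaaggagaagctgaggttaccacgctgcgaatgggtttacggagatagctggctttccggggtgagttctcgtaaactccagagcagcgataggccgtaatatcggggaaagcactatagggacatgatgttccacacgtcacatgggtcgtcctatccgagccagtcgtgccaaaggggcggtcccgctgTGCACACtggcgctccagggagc
Mt2: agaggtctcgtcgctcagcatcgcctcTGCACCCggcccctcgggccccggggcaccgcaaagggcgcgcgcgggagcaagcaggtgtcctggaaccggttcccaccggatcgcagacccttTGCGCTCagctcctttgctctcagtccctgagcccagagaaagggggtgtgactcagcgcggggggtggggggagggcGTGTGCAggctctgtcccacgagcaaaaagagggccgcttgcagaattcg
Slc30a1: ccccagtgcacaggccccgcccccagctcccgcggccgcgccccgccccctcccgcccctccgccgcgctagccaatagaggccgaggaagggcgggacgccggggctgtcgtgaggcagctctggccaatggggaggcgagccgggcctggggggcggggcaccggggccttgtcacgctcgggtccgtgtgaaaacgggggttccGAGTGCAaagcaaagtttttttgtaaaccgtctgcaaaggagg
Mt2 held 3 such cores, a number reached by 1.263% of the 32851 promoters searched, and Mt1 and Slc30a1 held 1 each, where 21.41% of all promoters held at least 1. The core of Slc30a1 and the one of Mt2 nearest to its start lie on the opposite strand. The deposited annotation starts Slc30a1 inside its window, so that its core lies within the gene as annotated there. A match is a description of the letters only. Cores and starts further downstream were not searched, so the counts of cores do not rank these genes as MTF1 targets. RefSeq promoters were matched for 4 of the 6 genes. Slc39a5, not shown, held 1 core at chr10:128401225-128401474 and 0 at chr10:128400467-128400716. Between mice its r with Mt1 was 0.23 in islets (adjusted permutation p = 0.632) and -0.05 in liver (adjusted permutation p = 0.901).

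Values are FPKM (fragments per kilobase of transcript, scaled to the mapped total of the library), which allows levels to be compared between genes. Differences are HFD minus CD on the log2(FPKM + 1) scale with their standard errors (SE), which understates the change of genes near or under 1 FPKM. They were tested with limma, and p-values were adjusted over all genes tested in a comparison. Where diets are said not to overlap, this describes the 4 and 4 values of a week and is not a call. For a gene without a diet difference, such a lack of overlap in either direction arises by chance at a rate of 0.0286. How many of all genes did not overlap was not counted. Among all genes a lack of overlap may be commoner than 0.0286, since many genes differed by diet. In liver at week 12, for example, 3021 of 9955 genes had an unadjusted p under 0.05 (limma). Ins2, the insulin gene, was between 394273 and 707231 FPKM in islets, and Alb, the hepatocyte albumin gene, between 16734 and 46057 FPKM in liver, so the tissue labels held. In islets, Alb did not exceed 48.84 FPKM, and in liver Ins2 ranged from 0 to 2467 FPKM. The 10 acinar markers, all measured in islets, summed to between 2986 and 89504 FPKM there (median 13678) although islets had been hand-picked, and were highest in CD mice at week 12. In bulk samples such as these, fewer cells of a type and less RNA per cell cannot be told apart.

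The metallothioneins were the most abundant of the 6 genes in both tissues. Over the 48 islet libraries Mt1 had a median of 366.92 FPKM (70.81 to 968.94) and Mt2 a median of 140.06 FPKM (22.73 to 552.36). In liver, Mt1 had a median of 339.77 FPKM and ranged from 8.82 to 2464.4 FPKM, a 279-fold span. Liver Mt2 had a median of 141.47 FPKM and ranged from 1.12 to 1276.5 FPKM, a 1140-fold span. Much of this spread lay between mice of the same diet and week. The pooled within-group SD of log2(FPKM + 1) was 1.24 for Mt1 and 1.46 for Mt2 in liver, which placed them 31st and 13th of 10879 genes against a median SD of 0.18. In islets it was 0.51 for Mt1 and 0.62 for Mt2, ranks 174 and 110 of 12378 genes, against a median of 0.14. Mt1 stayed above Mt2 in each of the 96 libraries, with a median Mt1 to Mt2 ratio of 2.50 and 2.57 in islets of CD and HFD mice and 2.43 and 2.68 in liver, and a range of 1.51 to 7.88.

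**Figure D1:**
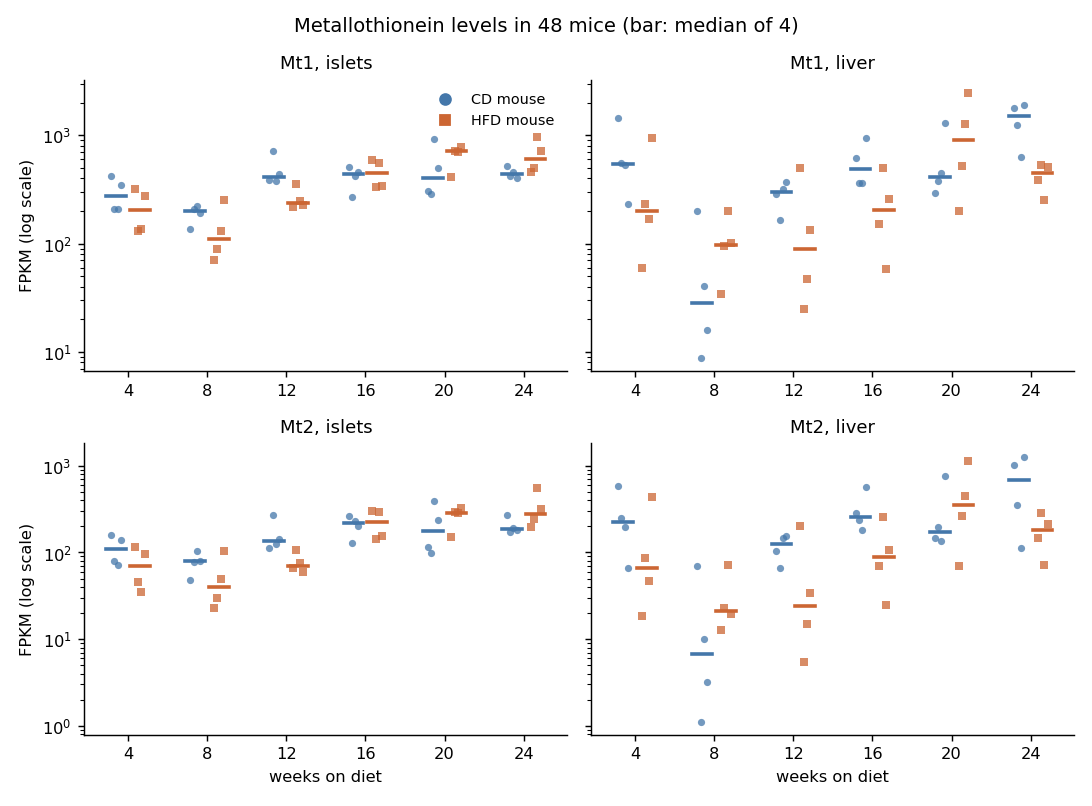
Mt1 and Mt2 levels in FPKM (log axis) against week on the diet in islets and liver, with a point for each mouse and a bar at the median of the 4 mice of each diet. Liver levels spread more within a group than islet levels (pooled within-group SD of Mt1 1.24 against 0.51 on the log2 scale), and in islets the HFD mice sat below the CD mice at week 12 without overlap.

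In islets, HFD mice had lower mean metallothionein levels than CD mice in weeks 4, 8 and 12 and higher ones in weeks 16, 20 and 24. At week 12, Mt1 was at 385.31, 722.99, 381.17 and 437.55 FPKM in CD mice and at 217.25, 352.67, 247.71 and 229.84 FPKM in HFD mice. The groups did not overlap, but the difference of -0.85 ± 0.26 did not pass the test (adjusted p = 0.165, limma), and neither did that of Mt2, -1.02 ± 0.33 (adjusted p = 0.179), whose groups did not overlap either. At week 24, Mt1 was at 525.55, 424.62, 463.75 and 407.04 FPKM in CD mice and at 456.35, 500.52, 968.94 and 722.59 FPKM in HFD mice, groups that overlapped. That difference was 0.48 ± 0.25 (adjusted p = 0.305).

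The change in the diet difference between the first and the second 3 weeks sampled was tested directly. For Mt1 in islets, the early minus late difference was -1.02 ± 0.30 (adjusted p = 0.0453), and for Mt2 it was -1.21 ± 0.36 (adjusted p = 0.0538). The difference between the genes was not tested. In this contrast 3.16% of the 12378 genes tested in islets passed. Both genes were close to the threshold. In the 48 fits that each left out 1 library, the call for Mt1 was lost in 29, with an adjusted p up to 0.0812 without the islets of mouse CD306, and Mt2 passed in 11, with an adjusted p down to 0.0191 without those of HFD217. Without week 12, where acinar markers were highest, the contrast was -0.93 ± 0.34 for Mt1 (adjusted p = 0.0821). The Mt1 contrast also did not pass with median ratio scaling or with Ins1 and Ins2 left out of the total. None of the 6 genes passed this contrast in liver, where 0.175% of 10879 genes did, and Mt1 there was at 0.37 ± 0.71 (adjusted p = 0.924).

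In liver, the metallothioneins of HFD and CD mice overlapped in most weeks. The clearest separation was that of Mt1 at week 24, with 1805.73, 1238.18, 630.12 and 1922.05 FPKM in CD mice and 387.7, 531.4, 253.52 and 505.79 FPKM in HFD mice. Each HFD mouse was below each CD mouse, yet the difference of -1.67 ± 0.36 missed the threshold (adjusted p = 0.0833) and passed only without mouse CD606 (adjusted p = 0.0202). Mt2 at week 24 overlapped, with 1016.89, 353.52, 113.16 and 1276.53 FPKM in CD and 148.71, 284.69, 71.37 and 210.65 FPKM in HFD mice. Weeks 8 and 20 had the other sign. At week 8, liver Mt1 was at 201.6, 8.82, 40.33 and 16.05 FPKM in CD and at 34.37, 95.14, 199.9 and 101.28 FPKM in HFD mice, the lowest week of all for both diets together (mean 87.2 FPKM against 909 FPKM at week 24). This difference between weeks was not tested. Over the 6 weeks, the liver difference was -0.68 ± 0.35 for Mt1 (adjusted p = 0.121) and -0.80 ± 0.42 for Mt2 (adjusted p = 0.118), with 95% intervals of -1.39 to 0.04 and -1.65 to 0.04. In islets the six-week differences were -0.15 ± 0.15 for Mt1 (adjusted p = 0.437) and -0.22 ± 0.18 for Mt2 (adjusted p = 0.334).

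Slc30a1, the zinc exporter at the plasma membrane, fell in HFD mice in both tissues over the 6 weeks. The six-week difference was -0.27 ± 0.08 in islets (adjusted p = 0.0093) and -0.20 ± 0.05 in liver (adjusted p = 0.00208), where 38.6% and 42.6% of all genes tested passed, so that a call in this contrast is common. The call held in each of the 48 fits without 1 library in either tissue. No single week passed. At week 4, islet Slc30a1 was at 4.64, 4.91, 4.02 and 4.46 FPKM in CD and at 3.87, 3.51, 3.55 and 3.25 FPKM in HFD mice, without overlap (difference -0.28 ± 0.09, adjusted p = 0.60). At week 12 the liver values were 7.71, 6.76, 7.5 and 8.47 FPKM in CD and 6.58, 4.61, 4.23 and 6.28 FPKM in HFD mice, again without overlap (difference -0.44 ± 0.13, adjusted p = 0.0614). Liver Slc30a1 also did not overlap between diets at week 16 (-0.34 ± 0.12, adjusted p = 0.109) and week 24 (-0.34 ± 0.10, adjusted p = 0.154), and at week 4 its sign was the other, 0.25 ± 0.14 (adjusted p = 0.476).

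The levels of cell type markers in the islet samples moved over the same weeks. The summed level of the 4 alpha cell markers was between 11774.7 and 14306.3 FPKM in HFD islets at week 4 and between 955.28 and 1967.78 FPKM at week 24, against 14087.1 to 15057.1 FPKM and 6693.09 to 12571.1 FPKM in CD islets. Over the 6 weeks, 4 of 4 alpha markers and 3 of 3 delta markers fell, with medians of -1.07 and -1.19, and 5 of 8 beta markers rose and 1 fell (median 0.20), against a median of -0.01 over all genes. Of the 10 acinar markers 4 fell (median -0.51). In this contrast 38.6% of all genes tested in islets passed. Whether these shifts play a part in the Slc30a1 difference of islets was not tested for alpha, beta and delta cells. With the acinar markers as a covariate, Slc30a1 was at -0.31 (adjusted p = 0.00786), and without week 12 at -0.24 (adjusted p = 0.0421).

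**Figure D2:**
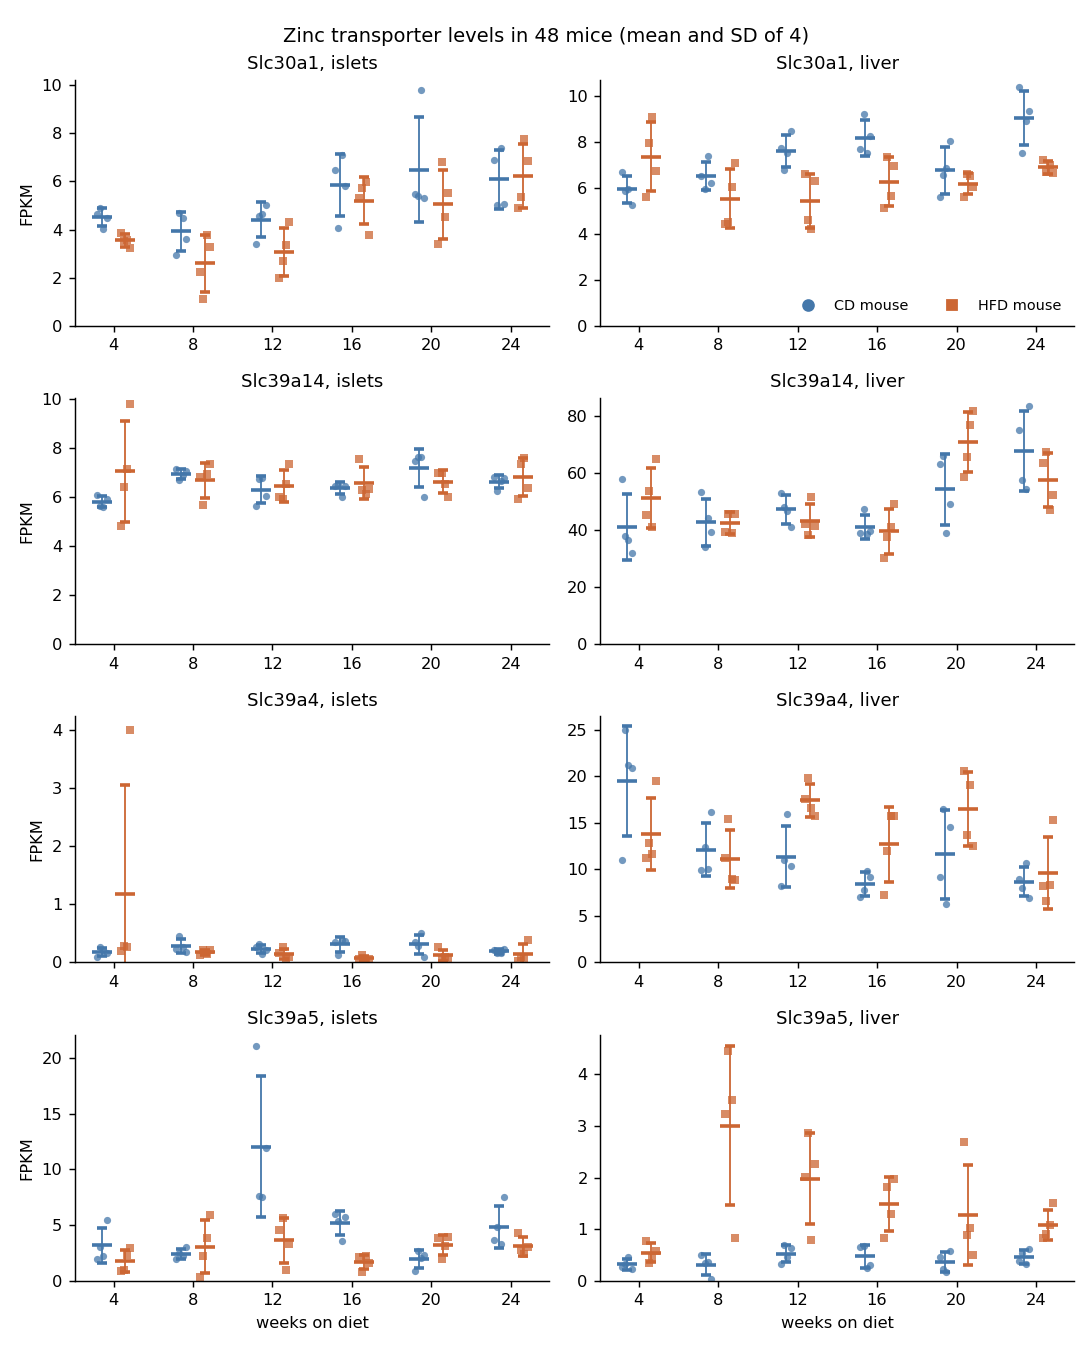
FPKM (linear axes, scaled to each panel) of Slc30a1, Slc39a14, Slc39a4 and Slc39a5 against week on the diet in islets and liver, with a point for each mouse and the mean with SD of the 4 mice of each diet. Slc39a14 and Slc39a4 lie far higher in liver than in islets, Slc39a5 of liver is under 1 FPKM in every CD mouse, and 1 islet library of week 4 stands apart for Slc39a4 at 4.0 FPKM.

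Slc39a5, the ZIP5 importer, was lower in islets and higher in liver of HFD mice. Over the 6 weeks it fell by 0.54 ± 0.15 on the log2 scale in islets (adjusted p = 0.00504). In liver it was 0.76 ± 0.09 higher, but it passed the filter on low values only through HFD mice. In the fit without that filter, where all genes with a value above 0 were tested, it passed as well (0.76 ± 0.10, adjusted p = 1.05e-07). The difference between these diet effects, liver minus islets, was 1.30 ± 0.18 (adjusted p = 1.2e-08) and was the only one among the 6 genes to pass, in a contrast where 43.9% of 13346 genes did. It passed in all 96 fits that left out 1 library. This contrast takes in the islet difference, which did not pass with the acinar markers as a covariate. The contrast itself was not fitted with that covariate.

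In liver, Slc39a5 was at a low level throughout. CD livers held between 0.04 and 0.69 FPKM, and 13 HFD livers but 0 CD livers reached 1 FPKM. At week 8 it was at 0.5, 0.35, 0.37 and 0.04 FPKM in CD mice and at 3.23, 4.45, 3.51 and 0.83 FPKM in HFD mice, a 9.54-fold higher mean. At week 16 it was at 0.66, 0.68, 0.25 and 0.3 FPKM in CD and at 0.83, 1.82, 1.29 and 1.98 FPKM in HFD mice, a 3.13-fold higher mean. The diets did not overlap at weeks 8, 12, 16 and 24 and overlapped at weeks 4 and 20. The share of all genes without overlap in these weeks was not counted. It was under the level required for the weekly tests, and without that filter it passed at week 8 (1.51, adjusted p = 0.0441) and week 16 (0.74, adjusted p = 0.0433), and missed narrowly at week 12 (0.92, adjusted p = 0.0509). Acinar RNA in liver was low, with a sum of the 10 markers between 0.11 and 106.13 FPKM. A list of 6 intestinal genes, chosen after values were seen, had a higher sum in HFD livers, with medians of 2796 against 267 FPKM at week 8 and 2562 against 879 FPKM at week 16. Apoa4, which hepatocytes also express, made up most of it (medians over 24 mice of 1324 FPKM on HFD and 357 FPKM on CD), with Fabp2 at 103.86 and 48.6 FPKM, while Alpi, Rbp2 and Muc2 had medians of 0 FPKM in both diets. The part of these genes in the Slc39a5 difference was not tested.

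In islets, Slc39a5 went with the acinar markers. At week 16 it was at 5.95, 5.36, 3.61 and 5.76 FPKM in CD and at 2.14, 0.78, 2.21 and 1.58 FPKM in HFD mice. These groups did not overlap, and the difference of -1.22 ± 0.21 passed (adjusted p = 0.00718), as 8.45% of all genes did. At week 12 it was at 21.05, 7.64, 7.5 and 11.95 FPKM in CD and at 4.54, 5.67, 0.99 and 3.31 FPKM in HFD mice, without overlap (difference -1.51 ± 0.49, adjusted p = 0.185). Week 20 had the other sign, with 0.85, 2.65, 2.04 and 2.29 FPKM in CD and 3.88, 1.99, 3.09 and 3.91 FPKM in HFD mice (difference 0.53 ± 0.23, adjusted p = 0.185). At week 12 the summed acinar markers ranged from 37388.6 to 89504.3 FPKM in the islets of CD mice, against 7120.33 to 35304.7 FPKM on HFD. At week 16 they ranged from 17037.8 to 32341.4 FPKM on CD, against 4052.1 to 12760.5 FPKM on HFD, so the diets did not overlap in these weeks either. At week 20 their median difference had the other sign too, 1.15 on the log2 scale over the 10 markers, though none passed. Across the 48 islet libraries, Slc39a5 and the mean acinar level had a Pearson correlation of 0.96, and of 0.948 with the group means removed, as a description over libraries that share their digestion and picking. With the acinar level as a covariate, the week 16 difference was -0.39 (adjusted p = 0.446) and the six-week difference -0.13 (adjusted p = 0.0536), and neither passed. Without week 12 the six-week difference was -0.35 (adjusted p = 0.0790).

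**Figure D3:**
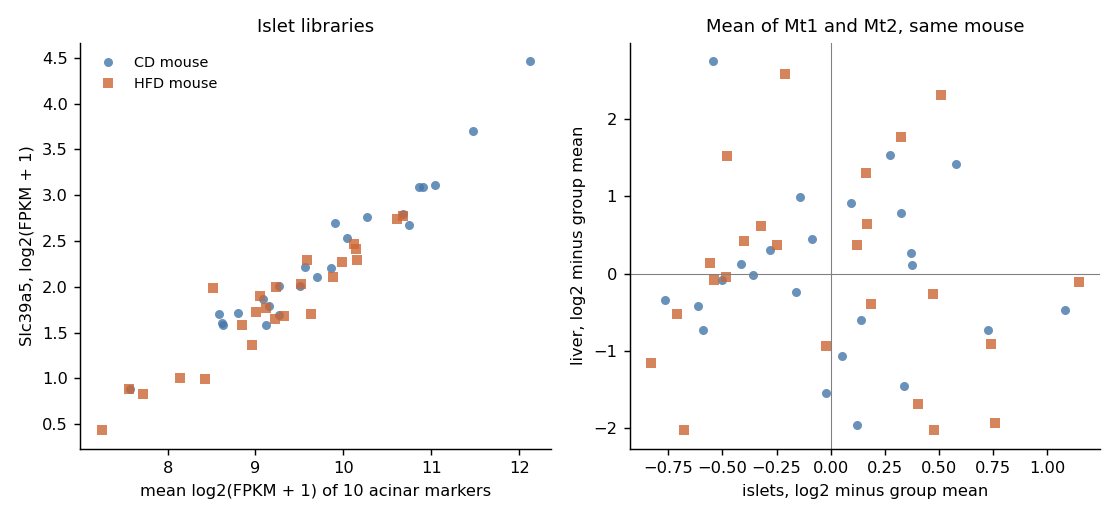
Left, Slc39a5 in islets against the mean of the 10 acinar markers, both as log2(FPKM + 1). Right, the mean log2(FPKM + 1) of Mt1 and Mt2 in liver against that in islets of the same mouse, each minus its group mean, with a point for each of 48 mice coloured by diet. Slc39a5 rises with the acinar markers across the 48 islet libraries (Pearson's r 0.96), whereas the metallothionein levels of the tissues of a mouse do not line up.

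Slc39a4, the ZIP4 importer, was a liver transcript in these samples. It was between 6.24 and 24.95 FPKM in liver (median 11.43) and at or under 0.5 FPKM in 47 of 48 islet libraries, too low for the tests there. Without the filter on low values it was lower in HFD islets at week 16 (-0.29 ± 0.07, adjusted p = 0.0254), with 0.36, 0.12, 0.39 and 0.37 FPKM in CD and 0.06, 0.13, 0.03 and 0.06 FPKM in HFD mice, and passed in no other week. In liver it rose at week 12, the 1 week in which it passed, with 8.19, 11.02, 16.0 and 10.35 FPKM in CD and 17.55, 19.85, 16.6 and 15.71 FPKM in HFD mice. The ranges just overlapped, and the difference of 0.60 ± 0.17 passed narrowly (adjusted p = 0.0482), as 10.6% of all genes did. It no longer passed in 7 of the 8 fits without 1 library (adjusted p up to 0.126 without mouse CD308). At week 4 the sign was the other, with 11.04, 24.95, 21.24 and 20.86 FPKM in CD and 11.25, 12.86, 11.61 and 19.47 FPKM in HFD mice (difference -0.45 ± 0.25, adjusted p = 0.481). Over 6 weeks liver Slc39a4 was at 0.19 ± 0.11 (adjusted p = 0.149).

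One islet library stood apart for Slc39a4, that of mouse HFD118 at week 4, with 4.0 FPKM. The same library held the zinc and manganese exporter Slc30a10 at 3.74 FPKM (at most 0.18 FPKM in the other 47) and the highest islet Slc39a14, 9.81 FPKM. Intestinal transcripts were high in it as well. Fabp2 was at 41.62 FPKM (at most 6.97 elsewhere), Alpi at 62.56 FPKM (at most 6.07) and Apoa4 at 191.52 FPKM (at most 16.2). With Rbp2, Muc2 and Vil1, the 6 genes summed to 450.25 FPKM against at most 82.12 FPKM in the other islet libraries. These 6 genes were chosen after their values had been seen, and their part in the Slc39a4 level was not tested. The difference of the Slc39a4 diet effect between tissues was 0.23 ± 0.14 (adjusted p = 0.182) with this library and 0.31 without it (adjusted p = 0.0209).

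Slc39a14, the ZIP14 importer, did not pass a diet comparison in either tissue. In islets it was the steadiest of the 6 genes, between 4.84 and 9.81 FPKM, with a six-week difference of 0.03 ± 0.04 (adjusted p = 0.656) and a 95% interval of -0.06 to 0.11. In liver it was between 30.34 and 83.68 FPKM, with a difference of 0.05 ± 0.07 (adjusted p = 0.60) and an interval of -0.09 to 0.19. Its liver level was higher late than early in both diets together, with means of 62.6 FPKM at weeks 20 and 24 against 40.4 to 46.2 FPKM at weeks 4 to 16. Levels were not tested between weeks. At week 20 the values were 63.16, 65.91, 39.19 and 49.17 FPKM in CD and 58.77, 65.64, 77.07 and 81.78 FPKM in HFD mice, which overlapped (difference 0.39 ± 0.17, adjusted p = 0.315).

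Across the 12 weekly comparisons, 2 of the 60 tests of these genes passed, or 3.33%, beside 5.04% of all tests over all genes. In islets, 0% of 11569 genes passed at week 4 by limma, where 854 had an unadjusted p under 0.05, and the shares of weeks 8, 12, 16, 20 and 24 were 5.27%, 4.53%, 8.45%, 4.74% and 8.3%. In liver the share was 0.0506% at week 4, and 7.49%, 10.6%, 7.43%, 2.47% and 0.837% in the weeks that followed, in order. In the six-week comparisons 4 of 11 tests of these genes passed, or 36.4%, beside 40.5% over all genes. One of these 4 was liver Slc39a5, which entered through HFD mice alone. In these weekly and six-week comparisons the share of zinc genes called was near that of all genes. In the 3 other kinds of comparison it was 9.09% beside 1.76% (1 call, early minus late), 66.7% beside 95.4% (tissues) and 16.7% beside 43.9% (1 call, diet effects between tissues).

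**Figure D4:**
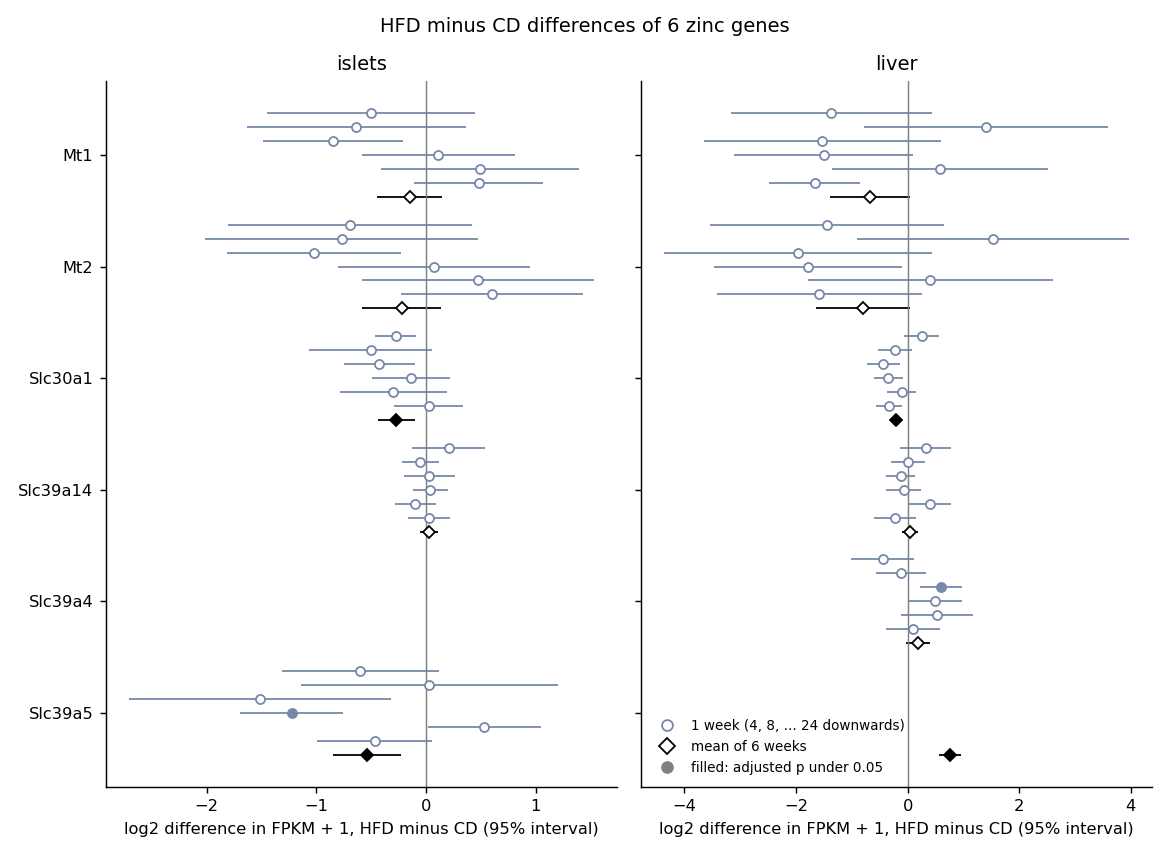
HFD minus CD differences on the log2(FPKM + 1) scale, with 95% intervals, of the 6 zinc genes in islets and liver, where circles are single weeks (4 to 24 downwards), diamonds the mean of the 6 weeks, and filled symbols passed at an adjusted p under 0.05. Genes under the filter have no symbol. Slc39a5 lies below 0 in islets and above 0 in liver over the 6 weeks, Slc30a1 lies below 0 in both, and the metallothioneins of liver have the widest intervals.

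Levels in the 2 tissues were compared in CD mice, where 95.4% of 13074 genes passed and the median over all genes was -0.66. Slc39a4 was higher in liver by 3.29 ± 0.08 (adjusted p = 8.7e-34), Slc39a14 by 2.69 ± 0.06 (adjusted p = 1.3e-36) and Slc30a1 by 0.44 ± 0.06 (adjusted p = 3.3e-09). Slc39a5 was lower in liver, at -1.84 ± 0.09 (adjusted p = 1e-21). Mt1 and Mt2 differed by -0.03 ± 0.24 (adjusted p = 0.901) and -0.06 ± 0.30 (adjusted p = 0.844). These metallothionein differences depended on how the tissues were scaled to each other. With median ratio scaling they were 0.73 and 0.69 (adjusted p = 0.00411 and 0.0288), and with Ins1 and Ins2 left out of the total Mt1 was at -0.49 (adjusted p = 0.0468) and Slc30a1 at 0.05 (adjusted p = 0.425). In mean FPKM the order in liver was Mt1 (503), Mt2 (229), Slc39a14 (50.0), Slc39a4 (12.7), Slc30a1 (6.80) and Slc39a5 (0.986), and in islets Mt1 (394), Mt2 (166), Slc39a14 (6.63), Slc30a1 (4.75), Slc39a5 (3.84) and Slc39a4 (0.280). In liver Mt1 and Mt2 overlapped widely across mice, and in islets so did Slc39a14, Slc30a1 and Slc39a5.

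Whether the genes varied together between mice was asked with the group means removed, over 36 relations, 48 mice each. Mt1 and Mt2 went together in islets (Pearson's r 0.98, Spearman's rho 0.98) and liver (r 0.97, rho 0.97), each with a permutation p of 1e-05, the smallest that the permutations can give, and an adjusted p of 0.00018. Slc30a1 rose and fell with Mt1 in islets (r 0.58, rho 0.56, permutation p = 0.00037, adjusted p = 0.00444) and liver (r 0.54, rho 0.60, permutation p = 0.00142, adjusted p = 0.00882). Without the 2 farthest mice these r were 0.50 and 0.54. With Mt2, Slc30a1 had r 0.56 and rho 0.56 in islets (adjusted permutation p = 0.00513) and r 0.49 and rho 0.54 in liver (adjusted permutation p = 0.0166), and 0.48 in both without the 2 farthest mice. In liver, Slc39a14 went with Mt1 (r 0.45, rho 0.47, adjusted permutation p = 0.0250) and Mt2 (r 0.52, rho 0.51, adjusted permutation p = 0.00882), with r of 0.44 and 0.52 without the 2 farthest mice. In islets Slc39a14 and Mt1 had r 0.11 (adjusted permutation p = 0.790). The islet pair Slc39a4 and Slc39a14 had r 0.57 but rho 0.06 (adjusted permutation p = 0.413), and r 0.01 without the 2 farthest mice, so its r rested on those mice. No gene was related between the islets and liver of a mouse, with r of -0.03 for Mt1 (adjusted permutation p = 0.922) and 0.14 for Slc30a1 (adjusted permutation p = 0.762).

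**Figure D5:**
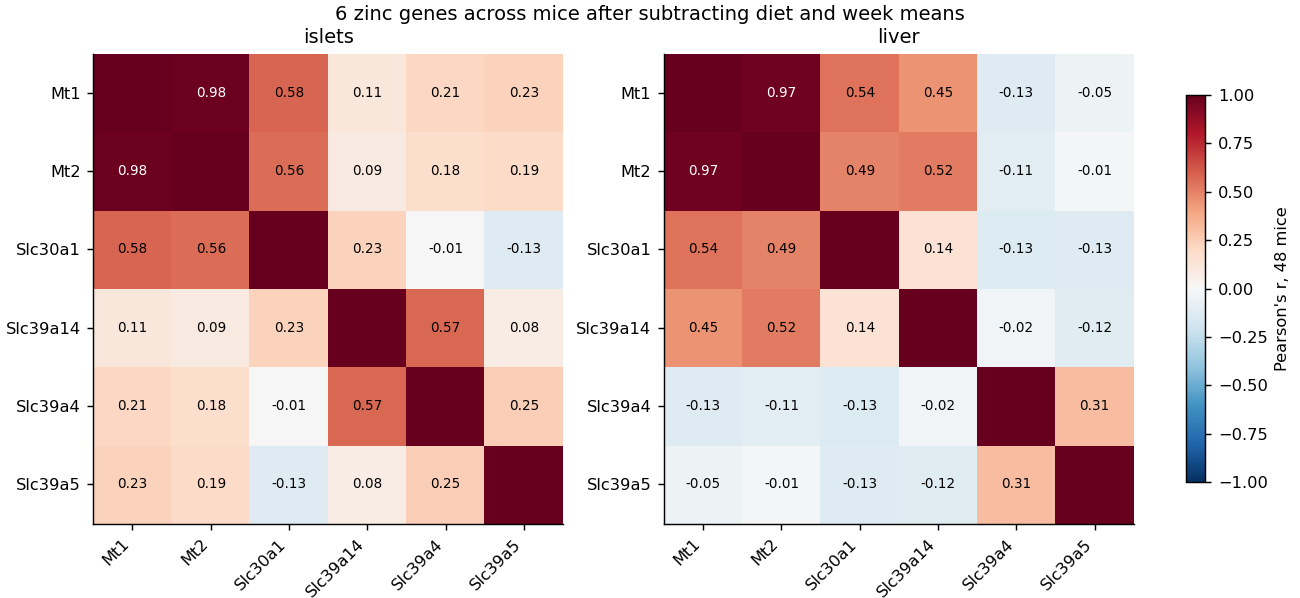
Pearson's r between the 6 zinc genes over 48 mice in islets and in liver, with the group means removed, on a colour scale from -1 to 1. Mt1, Mt2 and Slc30a1 form a block of positive values in both tissues, and Slc39a14 joins them in liver, at r 0.45 with Mt1 and 0.52 with Mt2.

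The genes whose pattern was most like that of the zinc genes were listed by Pearson's r over the 48 libraries of a tissue, as a description. For the mean of Mt1 and Mt2 in islets these were Diablo (0.69), Angptl4 (0.66), Nme4 (0.64), Fbxo6 (0.63) and Raly (0.62). In liver they were Camk2b (0.75), the autophagy gene Map1lc3b (0.74), the elongation factor Ell (0.73), Slc41a3 (0.71) and Cyp3a13 (0.71). For liver Slc39a14 they were Hspb8 (0.80), Stat3 (0.76), the transcription factor downstream of interleukin 6, Slc37a1 (0.74), St3gal4 (0.74) and the TNF receptor Tnfrsf1a (0.72). For liver Slc30a1 they were Cipc (0.81), Dnajb6 (0.81), Nampt (0.78), Tmtc2 (0.77) and Pik3cb (0.76), and for liver Slc39a4 Acad12 (0.65), Col4a2 (0.58), Clec14a (0.58), Pf4 (0.58) and Tmem8 (0.58). For islet Slc39a5 they were Zg16 (0.96), Ctrc (0.95), Cela1 (0.95), Cpb1 (0.94) and 2210010C04Rik (0.94), of which Zg16, Ctrc, Cela1 and Cpb1 are known from acinar cells.

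The other genes of zinc handling were described over the 6 weeks, a contrast that 38.6% of all genes tested passed in islets and 42.6% in liver. Of the 11 other ZIP importers, 8 were tested in islets, where 1 rose (Slc39a13, 0.11 ± 0.03, adjusted p = 0.00419) and 0 fell, with a median of 0.00 against -0.01 over all genes. In liver 9 were tested, 5 rose and 1 fell, with a median of 0.11 against 0.08 over all genes. There Slc39a9, which encodes the Golgi transporter ZIP9, rose by 0.31 ± 0.04 (adjusted p = 3.6e-08), Slc39a11 by 0.26 ± 0.06 (adjusted p = 0.000398), and Slc39a2 was at -0.30 ± 0.09 (adjusted p = 0.00677). Of the 9 other ZnT genes, 6 were tested in each tissue, and Slc30a6 alone rose, by 0.07 ± 0.03 in islets (adjusted p = 0.0423) and by 0.10 ± 0.03 in liver (adjusted p = 0.012), with medians of -0.01 and 0.09. Slc30a8, the granule transporter ZnT8, had a mean of 454 FPKM in CD and 433 FPKM in HFD islets, and fell at week 8 by 0.43 ± 0.08 (adjusted p = 0.0182), the 1 week in which it passed. In islets at week 8, 5.27% of all genes passed, 543 of the 613 calls were lower, and the median over all genes was -0.106. Mtf1, which encodes the metal-sensing factor, fell by 0.10 ± 0.04 in islets (adjusted p = 0.0172) and rose by 0.12 ± 0.03 in liver (adjusted p = 0.00174). Mt3, at 1.31 to 5.67 FPKM in islets, rose at week 12 (0.55 ± 0.13, adjusted p = 0.00973) and week 24 (0.77 ± 0.16, adjusted p = 0.0122), whereas Mt1 and Mt2 did not pass in those weeks. Of all genes tested in islets, 4.53% passed at week 12 and 8.3% at week 24. Mt4 was listed at 0 in nearly every library.

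Groups of genes that share known inputs with the metallothioneins were set beside them. Over all genes tested, 42.6% in liver and 38.6% in islets passed the six-week contrast, so that single calls in a list are common. Of 10 acute phase and interleukin 6 response genes, all were tested in liver over the 6 weeks, where 3 rose (Steap4, Saa3 and Lcn2) and 0 fell, with a median of -0.04, and of 5 tested in islets Steap4 rose (median 0.05). Among 8 glucocorticoid-responsive genes, Tat fell in both tissues, by 0.54 ± 0.15 in liver (adjusted p = 0.00356) and by 0.24 ± 0.07 in islets (adjusted p = 0.0108), and no other passed, with medians of -0.17 and -0.08. Among 10 clock genes, Per2 rose in liver (median 0.10), and Clock and Nr1d1 fell in islets (median -0.19). Among 8 immediate early genes, Atf3 and Jun rose in liver (median 0.72), and none of 7 passed in islets (median -0.00). Between mice, the median r with the mean of Mt1 and Mt2 in liver was 0.39 over the 10 acute phase genes (0.18 to 0.48). It was 0.34 over 9 clock genes, which ran from -0.43 (Clock) to 0.46 (Tef), and 0.16 over 7 immediate early genes (0.12 to 0.21). Over 8 glucocorticoid-responsive genes it was -0.02, from -0.33 (Tsc22d3) to 0.45 (Fkbp5), beside -0.07 over all genes. In islets it was 0.23 over 2 acute phase genes and 0.05 over 9 clock genes. It was 0.05 over 7 immediate early and -0.20 over 7 glucocorticoid-responsive genes there, beside 0.10 over all genes. Markers of other cell types moved in liver too. There 6 of 6 macrophage markers (median 0.64), 1 of 4 endothelial markers and 1 of 4 ductal markers tested were higher. Of 7 hepatocyte markers, 1 was higher and 1 lower. Of the islet markers, 3 of 3 beta markers tested (median -1.73) and 2 of 2 alpha markers tested (median -0.51) were lower in HFD livers, and 1 of 3 delta markers was higher. In islets 2 of 6 macrophage markers rose, 2 of 4 endothelial markers rose and 1 fell, 1 of 4 ductal markers tested fell, and 1 of 7 hepatocyte markers rose and 2 fell. Their part in the differences of the zinc genes was not tested.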

How the data were processed

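RNA of islets and liver of 48 mice was enriched for poly(A), reverse transcribed with random hexamers and sequenced on a BGISEQ-500 instrument. Per the labels, the submitters' processing notes name HISAT2 2.0.4, Bowtie2 2.2.5, RSEM 1.1.12, DESeq2 and the build GRCm38.p5, without their roles. The authors deposited FPKM of each library, rounded to 2 decimals, for 21990 genes, of which 20155 have values. The table gives no counts, so the depth behind a value is unknown here, and no counting intervals were made. Group means, log2 ratios, p-values and q-values of the authors' comparisons (DEGseq, per the file headers), and the authors' module and cluster tables, were not used. Samples were grouped by the tissue, diet and week in the labels. They are separate mice.

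FPKM were transformed to log2(FPKM + 1). Differences were tested two-sided with limma 3.58.1 (R 4.3.3), with its trend and robust options and Benjamini-Hochberg adjustment, and an adjusted p under 0.05 was the call. The design had foreseen limma for a table without counts. Weekly fits used the 8 libraries of a tissue and week and the genes that reached 1 FPKM in 4 or more of them. The other contrasts used 1 fit of 48 or 96 libraries with a mean for each group. The step was tested on simulated data. Correlations used 100000 permutations within groups (Python 3.11.15). Islets and liver of a mouse share its identifier, and the correlation of their deviations from the group means over 9936 genes was -0.0841 to 0.304 (median 0.156), over 0.1 in 34 of 48 mice.

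The 6 genes were given by name, and they, the gene lists and the tests were chosen with earlier results of these data known. Genes of lists are named by the lowest adjusted p, at most 3 a list and comparison, and the 5 most alike genes by r among genes with a mean of at least 1 FPKM. Slc30a8, Mt3, Mtf1 and the intestinal genes were also named for their known role or after their values were seen. The alternatives were a pseudocount of 0.1, no filter, median ratio scaling, leaving Ins1 and Ins2 out of the total, limma without trend and robust variances, 1 fit of all groups of a tissue, a minimum log2 change of 1, the mouse as a replicate block, and leaving out each library. A covariate of the 10 acinar markers and a fit without week 12 were added after seeing the data.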

Additional observations from a re-analysis of the deposited data

Results flagged for a closer look

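In 16 of the 144 groups of 4 mice, 1 mouse lay apart from the other 3 by Dixon's criterion. Chance alone does this in about 1 in 20 groups if values are normally distributed. The criterion was applied to FPKM without a log, and Mt1 and Mt2 vary together (r 0.97 in liver). The count of 16 therefore cannot be set against that rate. Mt1 was apart in the islets of mouse CD306 at week 12 (722.99 FPKM) and in the livers of CD203 at week 8 (201.6 FPKM) and CD507 at week 20 (1297.02 FPKM). Mt2 was apart in the livers of the same mice CD203 (69.54 FPKM) and CD507 (766.35 FPKM), and in those of HFD118 at week 4 (438.44 FPKM), HFD213 at week 8 (71.62 FPKM) and HFD313 at week 12 (202.55 FPKM). Each of these liver values was the highest of its group.

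Slc30a1 was apart in the islets of CD505 at week 20 (9.79 FPKM). Slc39a14 was apart in the islets of CD405 (6.0 FPKM) and HFD411 (7.58 FPKM) at week 16 and CD507 at week 20 (6.02 FPKM), and in the liver of CD403 at week 16 (47.53 FPKM). Slc39a4 in islets was apart in HFD118 at week 4 (4.0 FPKM), CD403 at week 16 (0.12 FPKM) and HFD617 at week 24 (0.39 FPKM), and only the first of these exceeded 1 FPKM.

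In 2 tested contrasts, a change of the diet difference between groups of samples passed the test. For Mt1 in islets the early minus late contrast was -1.02, with HFD below CD in the means of weeks 4, 8 and 12 and above in those of weeks 16, 20 and 24. It passed narrowly (adjusted p = 0.0453, limma), and the call was lost in 29 of the 48 fits without 1 library and under both other scalings. For Slc39a5 the liver minus islet contrast of the diet effects was 1.30. It takes in the islet difference, which went with the acinar markers, and was not fitted with the acinar covariate.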

How the results depend on the processing

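The weekly comparisons called 2 results of these genes. This count was 4 with no filter on low values and 4 without trend and robust variances, and 1 with a minimum log2 change of 1 or with the acinar covariate, the last chosen after seeing the data. Leaving out 1 library gave 1 to 4. The early minus late contrast called 1, which became 0 with median ratio scaling, with Ins1 and Ins2 left out of the total and without week 12 (also chosen after seeing the data), and 2 without trend and robust variances. Leaving out 1 library gave 0 to 2. The liver minus islet contrast of the diet effects called 1, and 2 with a pseudocount of 0.1. Leaving out 1 library gave 1 to 2 there, 4 to 5 in the six-week contrasts and 4 in the contrast of tissues. With the mouse as a replicate block (a paired fit), the contrast of tissues called 4 and that of the diet effects 1, and no call changed. With median ratio scaling, the tissue differences of Mt1 and Mt2 reversed, to 0.73 and 0.69. The causes of these changes were not tested. Of the results for single genes and pairs, 735 values under alternatives stayed on their side of the threshold, 12 lost the call and 11 gained it. With 1 library left out, 2345 stayed, 36 lost the call and 19 gained it. In 72 of these, a value that did not pass changed sign. The number of correlations called was 8 under each alternative, as in the report.

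Of these 19 gained calls, 11 were Mt2 in the early minus late contrast of islets (adjusted p 0.0191 without HFD217 to 0.0492 without CD104), and 2 are given in the report (Mt1 in liver at week 24 and Slc39a4 between tissues). The others were Mt1 in islets at week 8 without HFD217 (adjusted p = 0.0430), Slc30a1 in islets at week 12 without HFD318 (adjusted p = 0.00869), Mt2 and Slc30a1 in liver at week 12 without HFD313 (adjusted p = 0.0467 and 0.0491), Slc39a4 in liver at week 16 without HFD411 (adjusted p = 0.0108) and Mt2 in liver over 6 weeks without HFD313 (adjusted p = 0.0497). Over all genes, counts of calls moved by over 1.5 times in 11 of 18 comparisons, such as islets at week 16, with 988 calls and between 123 (acinar covariate) and 3701 (Ins1 and Ins2 left out). The scaling moved the median of all genes by up to 0.19 in the diet comparisons (islets at week 12) and by 0.58 between tissues. Values under 1 FPKM have at most 2 digits, which limits liver Slc39a5 and islet Slc39a4.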

Other observations

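Among the other ZIP genes, Slc39a10, which encodes the importer ZIP10, had the lowest r with the mean of Mt1 and Mt2 in islets, -0.77 over the 48 mice with the group means removed, against a median of 0.10 over all genes. It was chosen after its value was seen as the lowest of the 8 ZIP genes measured there. It was at 1.91 to 5.3 FPKM in CD and 2.08 to 7.17 FPKM in HFD islets. In liver the highest of the ZIP genes was Slc39a1 (r 0.45) and the lowest Slc39a7 (r -0.49). These values share the libraries and their scaling, and no test was made of them.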
